A study of Neurospora crassa with 12 samples.

Results

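The interval from germ tube elongation to first branching was taken from a course of conidial germination in *Neurospora crassa*, as the 3 libraries of germlings whose long axis had doubled (240 min after inoculation) against the 3 libraries of germlings with a first hyphal branch (360 min), 6 of 12 libraries in all. The other 6 libraries, of fresh conidia (15 min) and of first polar growth (120 min), entered the same model, ordered the genes by earlier level, and were compared with 240 min to show the course before it. All 12 libraries came from the wild-type *mat A* strain FGSC2489, whose conidia were spread on cellophane over potato dextrose agar (PDA) at 25°C under constant light, and a stage was sampled once roughly 70% of the conidia had reached it. A replicate pooled tissue from several plates of 1 collection, so that a library mixes germlings that were ahead of and behind the named stage, and p-values measure the spread between such pools. Of 10592 genes in the table, 8118 had enough counts to be tested, 1490 had no count in any of the 6 libraries, and only 1084 of those tested carried a gene symbol. Levels are CPM, counts per 1000000 counts of a library, after scaling with the trimmed mean of M values (TMM), and in bulk RNA a change in level cannot be told apart from a change in the share of germlings, compartments, or nuclei that carry the transcript.

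A conidium of *N. crassa* is a dispersal spore that swells, takes up water, and pushes out a germ tube, in which secretory vesicles are carried to the tip and new wall is laid down there. The branch marks the passage from a single polarized cell to a mycelium with several tips, and germlings of this age also find each other and fuse through specialized hyphae, the conidial anastomosis tubes. Growth at this rate draws on ribosome production, amino acid and nucleotide synthesis, and respiration, while wall polymers such as chitin and glucan must be both made and locally loosened.

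Between 240 and 360 min many genes changed and few changed far. Among the falls were 35 of 45 genes of amino acid synthesis, 8 of 9 of purine and pyrimidine synthesis, and the elongation factor genes *tef-1* (by 29.3%) and *cot-3* (by 39.1%), whereas *chit-1*, a chitinase gene, 9 of 17 cell wall protein genes, 8 of 21 fusion genes, and 14 of 29 nuclear genes of respiratory complex I rose. By edgeR's quasi-likelihood test with Benjamini-Hochberg adjustment over all 8118 genes, 1680 genes (20.7%) were upregulated and 1710 (21.1%) downregulated, 41.8% in all, at an adjusted p of 0.05. The median log2 fold change (standard errors, SE, are given beside single genes) was 0.39 among the upregulated and -0.33 among the downregulated genes, and 1237 of the former and 1521 of the latter moved by less than 1.5-fold. At least 2-fold changes were found for 184 upregulated and 26 downregulated genes. Tested against a 2-fold change, 8 genes passed and are named for that reason, with *ena-1* as the one lower at 360 min and NCU00265, *chit-1*, NCU05163, NCU01579, NCU08786, *fdh*, and *gh16-1* as those higher. The 3 and 3 libraries did not overlap for 51.8% of all tested genes, and for 3299 of the 3390 called genes.

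The direction of these calls was relative to the scaling. TMM factors were 0.99 in each 240 min library and 1.12, 1.17, and 1.12 in the 360 min libraries, and scaling by library totals alone moved the log2 fold change of the median gene up by 0.20. Without these factors 3367 genes were upregulated and 578 downregulated (85.3% upregulated, against 49.6% with them). Since this scaling moved fold changes up, upregulated genes were bound to stay above 0, in the lists as well, and all 1680 stayed upregulated. Of the 1710 downregulated genes 578 stayed so, 269 had a fold change above 0, and 0 were called upregulated. Falls are therefore given relative to the typical gene, and counts by library totals are given beside those of the lists. List counts are to be read beside the 20.7% upregulated and 21.1% downregulated of all tested genes. Genes with a symbol, from which most lists were drawn, leaned to falls, with 17.7% of 1084 upregulated and 29% downregulated.

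The falls were concentrated among the genes with the highest counts. Genes were split into 5 equal groups by their mean level at 15 and 120 min, which did not enter the contrast but shared its filter, scaling, and estimate of spread. In the highest quintile 978 genes were downregulated and 114 upregulated (median log2 fold change -0.23), and in the lowest 31 were downregulated and 182 upregulated (median 0.21). By library totals the highest quintile still held the most falls, with 419 downregulated and 367 upregulated, against 13 and 287 in the lowest. Without 360 min replicate 3 the highest quintile held 976 downregulated and 141 upregulated genes. Genes with few counts at 15 and 120 min passed the filter only if counted at a later stage. Membership of the lowest quintile was therefore set in part by the libraries compared. Ordered by mean level in the 6 libraries compared, the lowest quintile held 41 downregulated and 110 upregulated genes (median 0.14), a weaker lean to rises. The highest quintile of that order held 866 downregulated and 187 upregulated genes (median -0.19).

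**Figure D1:**
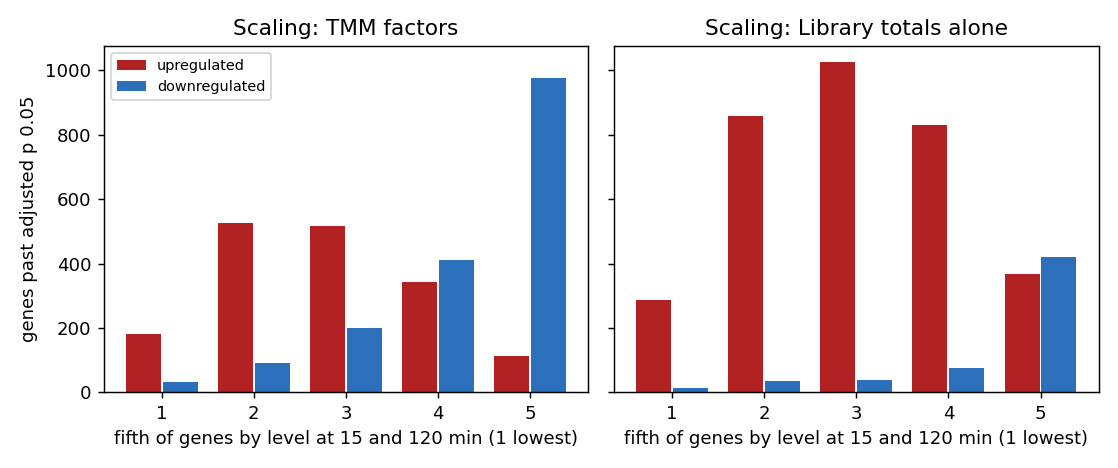
Number of genes upregulated (red) and downregulated (blue) at 360 min against 240 min at an adjusted p of 0.05, by quintile of mean CPM at 15 and 120 min, with TMM factors (left) and with library totals alone (right). Downregulated genes rise from 31 in the lowest quintile to 978 in the highest on the left, and from 13 to 419 on the right, where upregulated genes outnumber them in every quintile but the highest.

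Libraries held 51555784 to 84946272 counts. A gene with no count may still have up to 3 by counting error alone, which came to 0.0353 to 0.0582 CPM. Annotated rRNA genes took 2.88%, 3.10%, and 3.54% of counts at 240 min and 2.08%, 2.51%, and 11.7% at 360 min, a difference without a direction shared by the 3 libraries (exact permutation test, two-sided p = 1.0, smallest possible 0.1). Replicate 3 of 360 min stood apart in 1 rRNA gene, NCU17319 (chosen after its values were seen), with 10.8% of its counts against 1.48% to 3.01% in the other 5 libraries. It also lay farthest from 240 min: among the 1710 downregulated genes it was the lowest of the 3 libraries for 1166, and among the 1680 upregulated genes the highest for 1032, while replicate 1 was the highest for 1281 and the lowest for 931. Without replicate 3 the calls were 1516 upregulated and 1657 downregulated, and with rRNA genes removed before scaling 1689 and 1707.

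The largest rises among genes with a symbol, at least 10 CPM, and no overlap between the stages were led by a chitinase gene. Expression of *chit-1* (NCU02184, chromosome I, 937786 to 943577 of NC12) was 6.102, 7.800, and 6.35 CPM at 240 min and 34.4, 45.6, and 35.7 CPM at 360 min. Every 360 min library exceeded every 240 min library, and the rise was 5.73-fold (log2 fold change 2.52, SE 0.15, edgeR adjusted p = 2.3e-06). The next was *fdh*, a formate dehydrogenase gene (NCU03813, chromosome V, 2492005 to 2494322), with 7.52, 11.8, and 12.4 CPM at 240 min and 34.2, 31.3, and 38.4 CPM at 360 min (log2 fold change 1.72, SE 0.15, edgeR adjusted p = 2.2e-05). The tetraspanin gene *pls-1* (NCU07432, chromosome I, 644063 to 646234) stood at 3.45, 5.19, and 5.35 CPM at 240 min and 14.02, 13.2, and 18.1 CPM at 360 min (log2 fold change 1.70, SE 0.26, edgeR adjusted p = 0.00031). All 3 genes were low in each 240 min library, and their lack of overlap was a condition of the choice. A further wall gene, *gh16-1* of glycoside hydrolase family 16 (NCU01353, chromosome V, 3747192 to 3750386), had 15.2, 15.8, and 17.2 CPM at 240 min and 43.7, 47.98, and 39.9 CPM at 360 min (log2 fold change 1.45, SE 0.09, edgeR adjusted p = 2.3e-06).

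Wall and membrane proteins made up much of the rest of the 10 largest rises. They included *acw-10*, an anchored cell wall protein gene, with 9.66, 12.4, and 12.7 CPM at 240 min and 33.1, 25.2, and 34.5 CPM at 360 min (log2 fold change 1.42, SE 0.25, edgeR adjusted p = 0.00074). *Prm1*, whose product acts in the fusion of plasma membranes, had 10.5, 12.7, and 12.5 CPM at 240 min and 35.03, 27.7, and 29.8 CPM at 360 min (log2 fold change 1.37, SE 0.27, edgeR adjusted p = 0.0017). The non-anchored cell wall protein gene *ncw-1* and the copper transporter gene *tcu-1* rose by 2.31-fold and 2.23-fold (log2 fold changes 1.21 and 1.16, edgeR adjusted p = 0.0041 and 0.00015). The remaining pair, *cfp* and *ccg-14*, stood far higher in 1 library and are described with the other genes of that kind. Among genes without a symbol the largest rises were those of NCU00265, with 2.13, 2.91, and 3.31 CPM at 240 min and 19.7, 22.1, and 17.6 CPM at 360 min (log2 fold change 2.84, SE 0.18, edgeR adjusted p = 2.3e-06), and of NCU04276. The latter had 4.09, 6.48, and 6.19 CPM at 240 min and 9.53, 53.3, and 29.2 CPM at 360 min (log2 fold change 2.46, SE 0.51, edgeR adjusted p = 0.0021). The first was even across the 360 min libraries, and the second spread widely there.

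**Figure D2:**
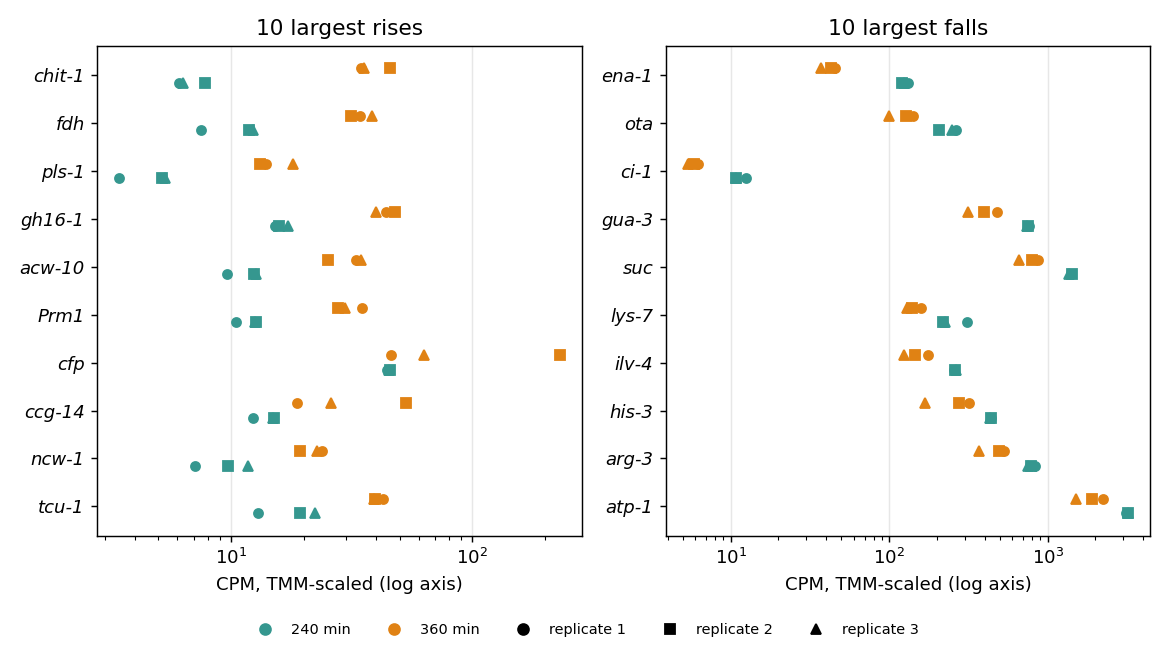
CPM (TMM-scaled, log axis) in each of the 6 libraries for the 10 genes with a symbol that rose most (left) and the 10 that fell most (right), with 240 min in teal, 360 min in orange, and a marker shape per replicate number. No overlap between the stages was a condition for drawing a gene. *ena-1* falls from between 121 and 131 CPM to between 37.1 and 45.9 CPM, and *cfp* and *ccg-14* are highest in 360 min replicate 2.

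The largest falls were smaller than the largest rises. The largest was that of *ena-1*, a sodium-exporting P-type ATPase gene (NCU05046, chromosome VI, 3938154 to 3943089), with 131, 121, and 123 CPM at 240 min and 45.9, 42.9, and 37.1 CPM at 360 min. This was a fall of 66.5% (log2 fold change -1.58, SE 0.10, edgeR adjusted p = 2.3e-06). As for the largest rises, no overlap between the stages was a condition of the choice. The other 9 fell by between 41.0% and 48.6%. Among them, *ota*, the ornithine aminotransferase gene of arginine breakdown (NCU00194, chromosome III, 2949400 to 2952208), had 263, 206, and 251 CPM at 240 min and 141, 128, and 99.9 CPM at 360 min (log2 fold change -0.96, SE 0.15, edgeR adjusted p = 0.0003). For *gua-3*, of guanine nucleotide synthesis (NCU02325, chromosome VII, 2907428 to 2909897), the values were 761, 756, and 745 CPM at 240 min and 476, 397, and 316 CPM at 360 min (log2 fold change -0.93, SE 0.11, edgeR adjusted p = 7.1e-05). The 240 min libraries were nearly equal for *gua-3*, and the 360 min libraries spread below them, lowest in replicate 3. Expression of *suc*, whose mutants need succinate, was 1409, 1418, and 1361 CPM at 240 min and 872, 802, and 659 CPM at 360 min (log2 fold change -0.84, SE 0.09, edgeR adjusted p = 3.4e-05). Without a symbol, NCU05038 (27.5, 22.9, and 25.5 CPM at 240 min and 11.8, 12.3, and 10.4 CPM at 360 min) and NCU02979 (534, 497, and 480.3 CPM at 240 min and 271, 251, and 197 CPM at 360 min) fell most (log2 fold changes -1.14 and -1.07, edgeR adjusted p = 1.8e-05 and 2.2e-05).

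Genes of translation were among the most counted and fell. Elongation factor 1-alpha, encoded by *tef-1* (NCU02003, chromosome I, 1711539 to 1714654), took 3.75% to 3.84% of a library's counts at 240 min and 2.58% to 3.41% at 360 min, more than any other gene outside the rRNA. The shares did not overlap, and the scaled level fell by 29.3% (log2 fold change -0.50, SE 0.10, edgeR adjusted p = 0.0014). Elongation factor 2, encoded by *cot-3*, stood at 8593, 8530, and 8680 CPM at 240 min and 6330, 5643, and 3748 CPM at 360 min (log2 fold change -0.71, SE 0.14, edgeR adjusted p = 0.0015). Of 9 cytosolic ribosomal protein genes with a symbol, all tested, 8 were downregulated and 0 upregulated (against 29% and 17.7% of tested genes with a symbol), at a median log2 fold change of -0.33 against 0.02 over all genes, but by library totals only 1 was downregulated. The largest of these falls were *crp-15* (-0.50), *crp-10* (-0.41), and *crp-2* (-0.39), of which the first pair did not pass by library totals. For *crp-2* the libraries held 2676, 2750, and 2793 CPM at 240 min and 2270, 2011, and 2003 CPM at 360 min, without overlap. The other genes with the largest shares of counts were *aac*, the ADP/ATP carrier of the inner mitochondrial membrane, *hsp70-2*, NCU16635, NCU07922, NCU09476, and NCU08990. The first of these fell by 29.9%, *hsp70-2* by 25.6%, NCU16635 by 22.8% (not past the test by library totals), NCU07922 by 30.6%, and NCU09476 by 25.3%. NCU08990 instead rose (log2 fold change 0.26, edgeR adjusted p = 0.038), highest in 360 min replicate 3. Without that library its log2 fold change was 0.12 (edgeR adjusted p = 0.083), and the call was also lost without any 240 min library and in the fit of 6 libraries (0.10).

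Most amino acid biosynthesis genes fell. Of the 45 genes listed, all tested and *ota* of arginine breakdown among them, 35 were downregulated and 1 upregulated (median log2 fold change -0.35), against 21.1% and 20.7% of all tested genes, and by library totals 19 were downregulated and 3 upregulated. The falls crossed pathways. Lysine synthesis was represented by *lys-7*, with 309, 218, and 226 CPM at 240 min and 159.7, 139, and 129 CPM at 360 min (log2 fold change -0.82, SE 0.13, edgeR adjusted p = 0.00048). In isoleucine and valine synthesis *ilv-4* had 258, 261, and 263 CPM at 240 min and 176, 146, and 125 CPM at 360 min (log2 fold change -0.81, SE 0.09, edgeR adjusted p = 4.9e-05). The histidine gene *his-3* fell by 42.0%, from 439.8 ± 3.46 to 255 ± 77.9 CPM (SD, n = 3). For *arg-3*, the large subunit of the arginine-specific carbamoyl-phosphate synthase, the libraries held 827, 788, and 754 CPM at 240 min and 529, 490.2, and 371 CPM at 360 min (log2 fold change -0.77, SE 0.11, edgeR adjusted p = 0.00019). In each of these 4 genes 360 min replicate 3 was the lowest. All 4 were among the 10 largest falls, for which no overlap between the stages was a condition. The member that rose, *ilv-5* (log2 fold change 0.35), is another isoleucine and valine gene. It stood at 12.9 ± 0.869 and 16.3 ± 2.16 CPM (SD, n = 3), and it did not pass without 360 min replicate 3 (log2 fold change 0.24) nor without 240 min replicate 1 or 2. The transcription factor gene *cpc-1*, whose product activates amino acid synthesis genes in cross-pathway control, was chosen after its values were seen. It had 1068, 1006, and 1014 CPM at 240 min and 824, 812, and 849 CPM at 360 min (log2 fold change -0.31, SE 0.06, edgeR adjusted p = 0.00087). By library totals its log2 fold change was -0.11 and did not pass.

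Nucleotide synthesis moved alongside. Of 9 purine and pyrimidine genes, 8 were downregulated and 0 upregulated (median -0.38, 1 upregulated and 5 downregulated by library totals). After *gua-3* came *ad-4*, the adenylosuccinate lyase gene, with 395, 397, and 402 CPM at 240 min and 309, 262, and 199 CPM at 360 min (log2 fold change -0.63, SE 0.12, edgeR adjusted p = 0.00097), and *ad-5* (-0.59). The levels of *ad-4* were nearly the same in the 3 libraries of 240 min and well below them in all of 360 min. Glycolysis and fermentation held 7 downregulated and 2 upregulated genes of 11 tested (2 upregulated and 3 downregulated by library totals). The falls were led by *emp-3*, with 494, 486, and 489 CPM at 240 min and 343, 335, and 307 CPM at 360 min (log2 fold change -0.58, SE 0.05, edgeR adjusted p = 2.2e-05). *pgk*, the phosphoglycerate kinase gene, followed (log2 fold change -0.46) and did not pass by library totals. The 2 that rose, *adh-1* and *cfp*, act in fermentation and stood highest in 1 library, without which (360 min replicate 2) none of the 11 was upregulated and 8 were downregulated. In the glyoxylate cycle and gluconeogenesis 2 of 7 were upregulated and 1 downregulated (3 upregulated and 0 downregulated by library totals), beside 20.7% and 21.1% of all tested genes.

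**Figure D3:**
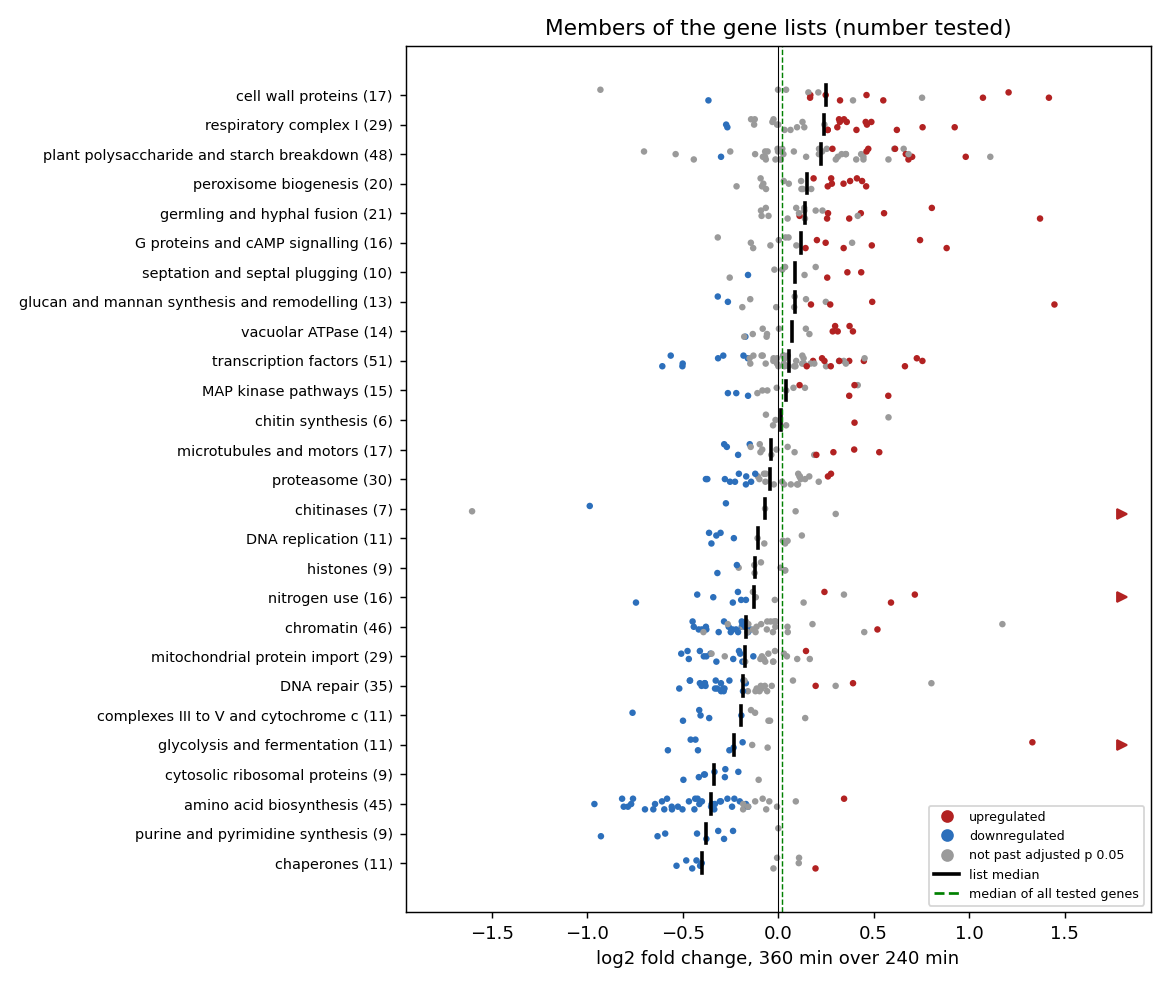
Log2 fold change, 360 min over 240 min, of each tested member of the gene lists named at the left (number tested in parentheses), in red if upregulated, blue if downregulated, and gray if not past an adjusted p of 0.05. Black bars mark list medians, the green line the median of all tested genes (0.02), and arrowheads the 3 members beyond 1.8; scaled by library totals, all values move up by about 0.20.

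Within the mitochondrion the complexes did not move together, and they also differed in level. Summed levels at 240 min had a median of 289 CPM for complex I and 17600 CPM for complexes III to V and cytochrome *c*. In the highest quintile by level at 15 and 120 min, 978 of 1624 genes were downregulated. Whether level accounts for the difference was not tested. The counts stand beside 20.7% upregulated and 21.1% downregulated of all tested genes. Of 29 nuclear genes of respiratory complex I, the proton-pumping NADH dehydrogenase, 14 were upregulated and 2 downregulated (median 0.24, 19 upregulated and 0 downregulated by library totals). The largest rise was that of *nuo24*, with 2.998, 3.65, and 3.34 CPM at 240 min and 5.27, 6.34, and 7.31 CPM at 360 min (log2 fold change 0.92, SE 0.12, edgeR adjusted p = 0.00014), followed by *nuo14.8* (0.76) and *nuo11.6* (0.62). For *nuo11.6* the libraries held 16.2, 16.3, and 17.5 CPM at 240 min and 23.1, 26.8, and 27.2 CPM at 360 min, again without overlap. The members that fell were *nuo19.3* (-0.27) and *nuo10.5* (-0.27), and neither passed by library totals. Of 11 genes of complexes III to V and cytochrome *c*, 6 were downregulated and 0 upregulated (median -0.19), against 2 upregulated and 3 downregulated by library totals. They were led by *atp-1*, the alpha subunit of the ATP synthase (NCU02514, chromosome I, 2579582 to 2582985), with 3126, 3239, and 3229 CPM at 240 min and 2235, 1905, and 1518 CPM at 360 min (log2 fold change -0.76, SE 0.11, edgeR adjusted p = 0.00017). The fall held in every library and was deepest in 360 min replicate 3. The others included *qcr8* of complex III, with 529, 525, and 528 CPM at 240 min and 421, 363, and 336 CPM at 360 min (log2 fold change -0.50, SE 0.07, edgeR adjusted p = 0.00013). *atp-2*, the beta subunit, fell as well (log2 fold change -0.41) but did not pass by library totals.

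Mitochondrial protein import leaned to falls, with 13 of 29 genes (44.8%) downregulated and 1 upregulated (median -0.17). Among tested genes with a symbol 29% were downregulated and 17.7% upregulated. The direction of the import list turned by library totals, with 8 upregulated and 4 downregulated. The largest falls in this list, *tim50* (-0.51) and *tim44* (-0.47), belong to the inner membrane translocase and its motor. For *tim44* the libraries held 316, 312, and 319 CPM at 240 min and 253, 229, and 199 CPM at 360 min. In the branched respiratory chain *nde-2*, an alternative NADH dehydrogenase gene, had 1141, 1107, and 1107 CPM at 240 min and 804, 733, and 659 CPM at 360 min (log2 fold change -0.61, SE 0.06, edgeR adjusted p = 3.4e-05). The alternative oxidase gene *aod-1*, whose product bypasses complexes III and IV, moved the other way, with 6.21, 6.25, and 6.18 CPM at 240 min and 7.999, 11.9, and 10.9 CPM at 360 min (log2 fold change 0.72, SE 0.14, edgeR adjusted p = 0.0012). Genes of the mitochondrial genome took 0.029% to 0.044% of counts at 240 min and 0.043% to 0.076% at 360 min. Of 24 tested protein genes there, 2 (8.33%) were upregulated and 1 (4.17%) downregulated, against 20.7% and 21.1% of all tested genes. By library totals 3 were upregulated and 1 downregulated. The gene downregulated with TMM factors, NCU16022, had no count at 360 min and 3, 7, and 12 counts at 240 min. Its call was lost without any 1 of the 360 min libraries (edgeR adjusted p = 0.059 to 0.061).

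Most chaperone genes that passed fell. Of 11 chaperone genes 6 were downregulated and 1 upregulated (median -0.40), against 21.1% and 20.7% of all tested genes. By library totals 4 were upregulated and 4 downregulated. *hsp60*, the mitochondrial chaperonin gene, had 916, 912, and 911 CPM at 240 min and 737, 672, and 486 CPM at 360 min (log2 fold change -0.53, SE 0.11, edgeR adjusted p = 0.0021). The one that rose was *grp78*, the chaperone of the endoplasmic reticulum, with 507, 547, and 539.6 CPM at 240 min and 605, 621, and 600.0 CPM at 360 min (log2 fold change 0.20, SE 0.04, edgeR adjusted p = 0.0025). In the list for folding and glycosylation in the endoplasmic reticulum and Golgi, 4 of 14 (28.6%) were upregulated and 0 downregulated (10 upregulated and 0 downregulated by library totals). Of 30 proteasome genes 10 (33.3%) were downregulated and 2 upregulated, near the 29% downregulated of tested genes with a symbol. By library totals 16 proteasome genes were upregulated and 0 downregulated, so that their direction rests on the scaling.

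Genes of DNA repair, chromatin, and DNA replication that passed mostly fell with TMM factors. In DNA repair 20 of 35 were downregulated and 2 upregulated (median -0.18, 4 upregulated and 5 downregulated by library totals), against 21.1% and 20.7% of all tested genes. The largest fall was *rad16*, with 13.2, 12.5, and 13.3 CPM at 240 min and 10.2, 8.31, and 8.800 CPM at 360 min (log2 fold change -0.52, SE 0.09, edgeR adjusted p = 0.0005). In the chromatin list 22 of 46 were downregulated and 1 upregulated (median -0.17), which turned to 10 upregulated and 5 downregulated by library totals. It was led by *dim-8*, a gene needed for heterochromatin and DNA methylation, with 90.3, 90.1, and 88.9 CPM at 240 min and 69.6, 64.8, and 63.1 CPM at 360 min (log2 fold change -0.45, SE 0.06, edgeR adjusted p = 0.00015). The sirtuin gene *nst-1*, of the NAD-dependent deacetylases, rose instead, with 32.3, 30.1, and 28.8 CPM at 240 min and 40.03, 43.4, and 47.4 CPM at 360 min (log2 fold change 0.52, SE 0.06, edgeR adjusted p = 8.3e-05). Of 11 DNA replication genes 5 were downregulated and 0 upregulated, and of 9 histone genes 2 were downregulated (22.2%, near the 21.1% of all tested genes) and 0 upregulated, against 4 and 1 and then 3 and 0 genes upregulated and downregulated by library totals, so that for these lists too the direction turned.

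Most cell wall protein genes that passed rose. Of 17 cell wall protein genes 9 were upregulated and 1 downregulated (median 0.25, 12 upregulated and 0 downregulated by library totals). Counts of the wall lists stand beside 20.7% upregulated and 21.1% downregulated of all tested genes. Besides *acw-10* and *ncw-1*, the anchored protein gene *acw-4* had 1.32, 3.19, and 2.38 CPM at 240 min and 4.39, 4.51, and 5.33 CPM at 360 min (log2 fold change 1.07, SE 0.23, edgeR adjusted p = 0.0023). Among 7 tested chitinase genes only *chit-1* was upregulated, and 2 were downregulated (2 upregulated and 1 downregulated by library totals), of which *gh18-4* stood below 1 CPM in all 6 libraries. The chitin synthase gene *chs-3* rose, with 77.4, 81.1, and 83.1 CPM at 240 min and 96.7, 108, and 114 CPM at 360 min (log2 fold change 0.40, SE 0.06, edgeR adjusted p = 0.00036), and it was the one member of 6 to pass, against 5 upregulated and 0 downregulated by library totals. The chitinase and chitin synthesis lists, at 14.3% and 16.7% upregulated, lay below the 20.7% of all tested genes. Of 13 glucan and mannan genes 4 (30.8%) were upregulated and 2 (15.4%) downregulated (7 upregulated and 0 downregulated by library totals). Besides *gh16-1*, the beta-1,3-glucanosyltransferase gene *gel-3* had 313, 321, and 323 CPM at 240 min and 394, 418, and 345 CPM at 360 min (log2 fold change 0.27, SE 0.06, edgeR adjusted p = 0.0029).

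Single genes of polar growth moved both ways. *spa2*, a polarisome gene, had 39.1, 37.9, and 39.9 CPM at 240 min and 51.7, 57.2, and 57.5 CPM at 360 min (log2 fold change 0.51, SE 0.06, edgeR adjusted p = 8.3e-05). Its stages did not overlap. The polarity defective gene *pod-5* fell, with 236, 224, and 232 CPM at 240 min and 179.7, 176, and 163 CPM at 360 min (log2 fold change -0.41, SE 0.05, edgeR adjusted p = 6.2e-05). *krev-1* (-0.39), a Ras-like GTPase gene, fell as well. In the actin cytoskeleton *tpm*, for tropomyosin, was the one of 7 to pass (5 upregulated and 0 downregulated by library totals), with 295, 300.5, and 299 CPM at 240 min and 381, 380.4, and 528 CPM at 360 min (log2 fold change 0.53, SE 0.11, edgeR adjusted p = 0.0024). Among 17 microtubule and motor genes 4 were upregulated and 4 downregulated (9 upregulated and 0 downregulated by library totals). This was 23.5% each way, near the 20.7% and 21.1% of all tested genes. The rises were led by *ro-11* (0.53), a ropy gene of nuclear distribution. Septum genes held 3 upregulated and 1 downregulated of 10 (7 upregulated and 0 downregulated by library totals). *hex-1*, which forms the Woronin bodies that plug septal pores, had 1502, 1567, and 1587 CPM at 240 min and 2061, 2231, and 2005 CPM at 360 min (log2 fold change 0.44, SE 0.06, edgeR adjusted p = 0.00018).

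Fusion genes that passed rose. Of 21 germling and hyphal fusion genes 8 were upregulated and 0 downregulated (median 0.14, 17 upregulated and 0 downregulated by library totals), and without 360 min replicate 3 there were 12 and 0. After *Prm1* came *ham-8*, an anastomosis gene (NCU02811, chromosome I, 9041203 to 9044883), with 59.1, 63.00, and 61.1 CPM at 240 min and 110.0, 103, and 107 CPM at 360 min. The replicates were tight and far apart between stages (log2 fold change 0.81, SE 0.09, edgeR adjusted p = 6.3e-05). *hym-1*, a scaffold protein gene shared with the NDR kinase list, had 11.9, 14.1, and 13.5 CPM at 240 min and 18.6, 19.8, and 19.5 CPM at 360 min (log2 fold change 0.56, SE 0.08, edgeR adjusted p = 0.00014). Cell wall integrity kinases moved both ways. *mek-1* had 104, 109, and 109 CPM at 240 min and 166, 156, and 159 CPM at 360 min (log2 fold change 0.58, SE 0.07, edgeR adjusted p = 0.0001). Levels of *mak-1* were 166, 170.3, and 168 CPM at 240 min and 217, 221, and 228 CPM at 360 min (log2 fold change 0.40, SE 0.04, edgeR adjusted p = 3e-05). *pkc*, the protein kinase C gene of that pathway, had 134, 130.4, and 136 CPM at 240 min and 121, 119, and 94.01 CPM at 360 min (log2 fold change -0.26, SE 0.08, edgeR adjusted p = 0.015), and it did not pass by library totals (-0.06). The MAP kinase list held 4 of 15 upregulated and 3 downregulated (8 upregulated and 0 downregulated by library totals), beside 20.7% and 21.1% of all tested genes. Of 16 G protein and cAMP genes 7 were upregulated and 0 downregulated (10 upregulated and 0 downregulated by library totals). They included *pkac-2*, a catalytic subunit of protein kinase A, with 7.51, 7.52, and 7.79 CPM at 240 min and 11.6, 13.3, and 13.3 CPM at 360 min (log2 fold change 0.74, SE 0.11, edgeR adjusted p = 0.00026). The receptor gene *gpr-3* rose too (log2 fold change 0.88), at 1.35 to 3.95 CPM. In the NDR kinase list 3 of 10 were upregulated and 0 downregulated (7 upregulated and 0 downregulated by library totals), and in calcium signaling 4 of 13 and 2 (10 upregulated and 0 downregulated by library totals), beside 20.7% and 21.1% of all tested genes. In the stk and prk series of protein kinases 8 of 57 were upregulated and 10 downregulated, a direction that turned by library totals, with 33 and 3.

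Nutrient genes moved both ways, and their list counts stand beside 20.7% upregulated and 21.1% downregulated of all tested genes. In nitrogen use 4 of 16 genes were upregulated and 7 downregulated, which turned to 7 and 2 by library totals. Glutamine synthetase was represented by *gln-2*, with 54.7, 62.1, and 64.6 CPM at 240 min and 83.5, 102, and 112 CPM at 360 min (log2 fold change 0.72, SE 0.10, edgeR adjusted p = 0.00015). *xdh-1*, the xanthine dehydrogenase gene of purine use, had 50.9, 51.2, and 49.8 CPM at 240 min and 31.7, 31.96, and 27.1 CPM at 360 min (log2 fold change -0.74, SE 0.07, edgeR adjusted p = 2.2e-05). Both were without overlap. The nitrate assimilation genes rose from very low levels. *nit-3*, for nitrate reductase, went from 1.32 ± 0.0790 to 1.98 ± 0.0618 CPM (SD, n = 3). *nit-6*, for nitrite reductase, went from 8, 0, and 5 counts to 21, 31, and 18 counts, a call lost without 360 min replicate 2 (edgeR adjusted p = 0.072) and without 240 min replicate 2 or 3. In sulfur use 6 of 13 were downregulated and 1 upregulated, which turned to 1 and 3 by library totals. The one that rose was *cys-3*, the sulfur regulator gene (log2 fold change 0.18). In phosphate use 2 of 6 were downregulated and 0 upregulated, which turned to 1 and 2 by library totals, led by the permease gene *pho-4* at 0.710 to 1.79 CPM. Peroxisome biogenesis held 9 upregulated and 0 downregulated of 20 (median 0.15, 15 upregulated and 0 downregulated by library totals). *pex4* stood at 22.1, 21.3, and 23.9 CPM at 240 min and 27.8, 29.7, and 35.1 CPM at 360 min (log2 fold change 0.46, SE 0.08, edgeR adjusted p = 0.00067). Of 14 vacuolar ATPase genes 5 were upregulated and 1 downregulated (9 upregulated and 0 downregulated by library totals). Of 48 tested genes for the breakdown of plant polysaccharides and starch 8 were upregulated and 1 downregulated (15 upregulated and 0 downregulated by library totals).

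Among 51 transcription factor genes 11 were upregulated and 8 downregulated (25 upregulated and 3 downregulated by library totals), beside 20.7% and 21.1% of all tested genes. The largest rise was that of *acu-15*, a regulator of acetate use, with 9.505, 11.4, and 10.6 CPM at 240 min and 16.8, 16.9, and 19.3 CPM at 360 min (log2 fold change 0.76, SE 0.09, edgeR adjusted p = 7.9e-05). It was followed by *ada-1*, with 22.1, 18.4, and 19.3 CPM at 240 min and 32.1, 36.5, and 30.5 CPM at 360 min (log2 fold change 0.73, SE 0.10, edgeR adjusted p = 0.00015). Next came *adv-1*, with 71.3, 80.00, and 83.6 CPM at 240 min and 129, 116, and 128 CPM at 360 min (log2 fold change 0.66, SE 0.09, edgeR adjusted p = 0.00017). For all 3 genes each 360 min library stood above each 240 min library. The largest fall was *col-22* (-0.61), at 1.93 to 3.93 CPM. Light and clock genes, in cultures kept under constant light, divided. The blue light photoreceptor gene *vvd*, which adapts the light response, had 348, 339.9, and 346 CPM at 240 min and 516, 511, and 586 CPM at 360 min (log2 fold change 0.64, SE 0.06, edgeR adjusted p = 2.2e-05). The clock genes *frq* and *frh*, whose products form a complex, both fell. *frh* had 485, 478, and 453 CPM at 240 min and 353, 334, and 244 CPM at 360 min (log2 fold change -0.60, SE 0.10, edgeR adjusted p = 0.00065). For *frq* the values were 71.1, 67.2, and 65.7 CPM at 240 min and 58.6, 55.6, and 53.97 CPM at 360 min (log2 fold change -0.28, SE 0.05, edgeR adjusted p = 0.001), and it did not pass by library totals (-0.07).

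Markers of other cell types were low. Of 7 conidium markers, all tested, 0 were upregulated and 1, *con-6*, was downregulated, beside 20.7% and 21.1% of all tested genes. *con-6* had 11.3, 10.5, and 11.6 CPM at 240 min and 9.104, 5.62, and 7.36 CPM at 360 min (log2 fold change -0.60, SE 0.17, edgeR adjusted p = 0.012). Of these 7 markers 5 had a log2 fold change above 0 and 2 below (median 0.39). Their summed level was 24.2 to 26.4 CPM at 240 min and 17.9 to 30.6 CPM at 360 min, which overlapped, and *con-13* was at 0 in 5 of the 6 libraries. Of 9 sexual tissue markers 7 were tested and 2 were upregulated, with a summed level of 5.20 to 6.53 CPM at 240 min and 8.08 to 8.84 CPM at 360 min, and *fmf-1* was at 0 in every library. Those that passed were *mfa-1*, a pheromone precursor gene of the opposite mating type, with 1.49, 1.45, and 1.16 CPM at 240 min and 3.41, 3.68, and 4.25 CPM at 360 min (log2 fold change 1.46, SE 0.19, edgeR adjusted p = 0.0001), and *app*. The latter stayed below 1 CPM throughout and did not pass without 240 min replicate 1 or 3 or 360 min replicate 1. The part of such cells in the changes above was not tested.

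Secondary metabolism cluster (SMC) genes lie side by side in clusters that the study predicted, and not all of them encode enzymes for a metabolite. They are described here by the clusters with named members. Of all 139 tested SMC genes 26 (18.7%) were upregulated and 23 (16.5%) downregulated (47 and 12 by library totals). These shares lay below the 20.7% and 21.1% of all tested genes. SMC no. 18 on chromosome VII had 5 of 10 tested genes upregulated and 0 downregulated (median log2 fold change 0.75). Single clusters were not counted by library totals. The 3 largest rises in SMC no. 18 were those of neighbors, of which NCU12022 and NCU06170 were chosen after their values were seen. NCU12021 (chromosome VII, 1570143 to 1571561) had 22.2, 27.5, and 25.3 CPM at 240 min and 81.2, 77.05, and 75.6 CPM at 360 min (log2 fold change 1.64, SE 0.36, edgeR adjusted p = 0.0029). NCU12022, from 1568960 to 1570548, had 19.3, 21.8, and 28.4 CPM at 240 min and 65.3, 64.6, and 55.7 CPM at 360 min (log2 fold change 1.42, SE 0.36, edgeR adjusted p = 0.0068). The annotated spans of the pair share 406 bases, so that reads there may be split between them. NCU06170 followed with 7.899, 10.5, and 9.17 CPM at 240 min and 22.4, 21.9, and 31.3 CPM at 360 min (log2 fold change 1.46, SE 0.16, edgeR adjusted p = 4.4e-05). In all 3 genes every 360 min library was above every 240 min library. Elsewhere *ci-1* of SMC no. 16, annotated as an *ent*-kaurene oxidase gene, had 12.5, 10.8, and 10.8 CPM at 240 min and 6.24, 5.91, and 5.39 CPM at 360 min (log2 fold change -0.96, SE 0.15, edgeR adjusted p = 0.00031). The polyketide synthase gene *pks-4* of SMC no. 17 had 6.78, 6.33, and 5.98 CPM at 240 min and 4.21, 4.51, and 3.300 CPM at 360 min (log2 fold change -0.67, SE 0.16, edgeR adjusted p = 0.0044). Of the 14 genes of SMC no. 2, 11 were tested, and 4 were downregulated while *acw-10* rose.

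A few genes differed widely among the 360 min libraries. Fermentation genes were high in replicate 2. The alcohol dehydrogenase gene *adh-1* had 7.102, 9.198, and 8.05 CPM at 240 min and 8.72, 90.7, and 16.2 CPM at 360 min. Replicate 1 lay within the 240 min range, and the call (log2 fold change 2.25, SE 0.68, edgeR adjusted p = 0.019) was lost without replicate 2 (log2 fold change 0.62, edgeR adjusted p = 0.24) and without 240 min replicate 1 or 3. *cfp*, the pyruvate decarboxylase gene, had 44.1, 45.7, and 45.05 CPM at 240 min and 46.2, 231, and 63.1 CPM at 360 min (log2 fold change 1.33, SE 0.43, edgeR adjusted p = 0.025). Without replicate 2 its log2 fold change was 0.28 (edgeR adjusted p = 0.085), while without any 1 of the 240 min libraries it was 1.32 to 1.34 and did not pass either. The clock-controlled gene *ccg-14* was likewise highest there, with 12.3, 15.01, and 14.9 CPM at 240 min and 18.7, 53.2, and 26.03 CPM at 360 min. In all, 11 upregulated genes stood at least 2-fold above both other libraries in replicate 2, against 1 in replicate 3 and 0 in replicate 1. Without replicate 2 there were 1531 upregulated and 1610 downregulated genes in all. *scon-3*, of the sulfur control system, fell in replicates 1 and 2 and not in replicate 3, with 303, 311, and 319 CPM at 240 min and 153, 133, and 317 CPM at 360 min. Its call (log2 fold change -0.63, SE 0.23, edgeR adjusted p = 0.043) was lost in most alternative fits, by library totals (-0.43) among them. The conidium markers *eas*, for the hydrophobin that coats conidia, and *ccg-1*, both chosen after their values were seen, peaked in different libraries. *eas* had 2.78, 2.44, and 2.81 CPM at 240 min and 10.6, 3.14, and 1.49 CPM at 360 min. *ccg-1* had 5.96, 6.29, and 6.53 CPM at 240 min and 5.92, 5.09, and 15.2 CPM at 360 min. Neither passed the test (edgeR adjusted p = 0.16 and 0.22).

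**Figure D4:**
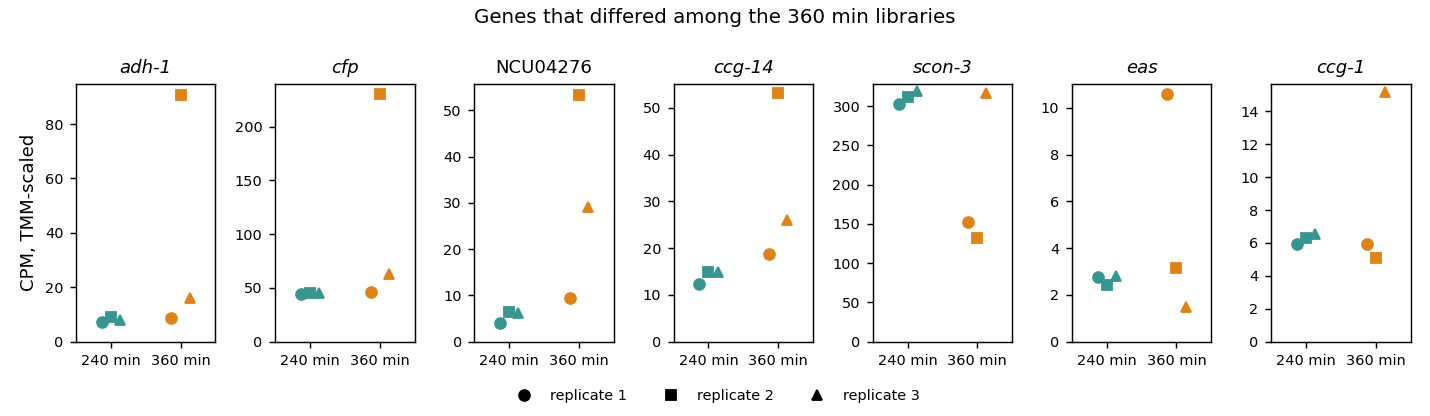
CPM (TMM-scaled) of 7 genes in each 240 min library (teal) and 360 min library (orange), with a marker shape per replicate number and each axis starting at 0. At 360 min, replicate 2 is highest for *adh-1* (90.7 CPM), *cfp* (231 CPM), NCU04276, and *ccg-14*, replicate 3 alone keeps the 240 min level of *scon-3*, and *eas* and *ccg-1* peak in replicates 1 and 3.

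The stages before 240 min set these changes in their course, in comparisons that share the 240 min libraries. The wall and fusion genes *chit-1*, *gh16-1*, and *ham-8* had risen before. For *chit-1* this followed a fall from a mean of 7.75 CPM at 15 min to 1.38 CPM at 120 min. At 240 min it stood at 6.75 CPM, still below 15 min. Over the preceding interval (120 to 240 min) the log2 changes were 2.28 (edgeR adjusted p = 4.5e-06) for *chit-1*, 1.47 (edgeR adjusted p = 2.1e-06) for *gh16-1*, and 0.56 (edgeR adjusted p = 0.0015) for *ham-8*, beside 2.52, 1.45, and 0.81 from 240 to 360 min. The translation genes had not moved detectably, with -0.01 (edgeR adjusted p = 0.96) for *tef-1* and -0.01 (edgeR adjusted p = 0.99) for *cot-3*, and *atp-1* had 0.01 (edgeR adjusted p = 0.97). Their falls to 27112 ± 3839, 5241 ± 1337, and 1886 ± 359 CPM (SD, n = 3) brought *tef-1* and *atp-1* near the 26402 ± 1463 and 1968 ± 78.7 CPM of fresh conidia at 15 min. *arg-3* had fallen already, with -0.33 (edgeR adjusted p = 0.044) and then -0.77, and *ena-1* with -0.45 (edgeR adjusted p = 0.0057) and then -1.58. The photoreceptor gene *vvd*, at 1345 ± 37.97 CPM at 15 min and 243 ± 12.04 CPM at 120 min, rose over both later intervals but stayed below its level at 15 min.

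**Figure D5:**
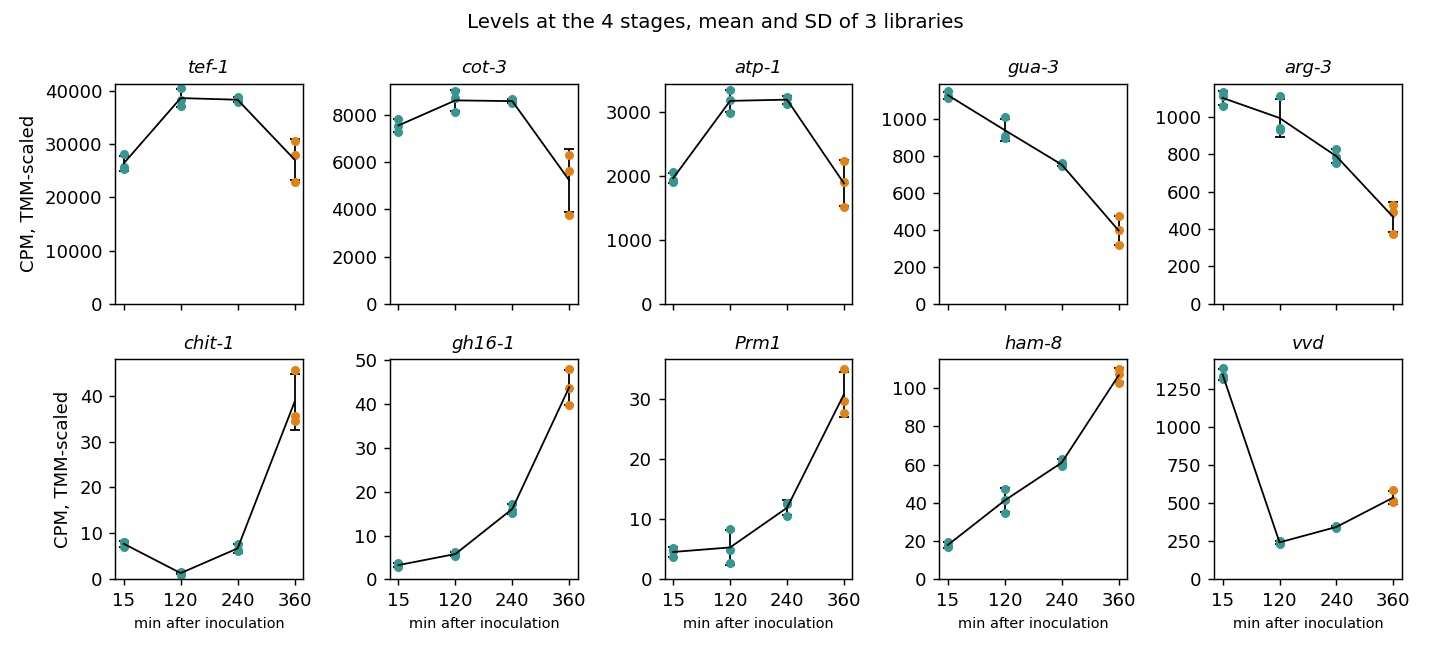
CPM (TMM-scaled) of 10 genes at the 4 stages, as points for the 3 libraries (360 min in orange) with their mean and SD, each axis starting at 0. The upper row (*tef-1*, *cot-3*, *atp-1*, *gua-3*, *arg-3*) falls from 240 to 360 min, and the lower row (*chit-1*, *gh16-1*, *Prm1*, *ham-8*, *vvd*) rises; by library totals these directions hold.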

How the data were processed

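RNA was prepared as strand-specific TruSeq libraries and sequenced as paired-end reads on a NovaSeq by the authors. Per the labels and the study's methods, CASAVA 1.8.2, HISAT2 2.1.0, and StringTie 1.3.3b were used upstream. The authors deposited whole-number counts per gene for 12 libraries, read back from StringTie coverage, so that they are estimates of reads. A second deposited table, of relative levels the authors fitted with replicates pooled, was not used. All columns were mapped to samples (0 were not).

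Counts were filtered with filterByExpr, scaled by TMM, and fitted in edgeR 4.0.16 (R 4.3.3) the stages being 4 coefficients shared by the 12 libraries. The contrast of 360 min with 240 min was tested by quasi-likelihood F, and p-values were adjusted by Benjamini-Hochberg with a threshold of 0.05. Standard errors were derived from the fold change and F. On simulated counts with these library sizes, edgeR recovered 99 of 100 genes changed 2-fold and 90 of 100 changed 1.5-fold, with 5 false calls among 7999 genes tested. In that simulation all other genes kept the same mean at every stage, and the spread was equal for all genes. The changed genes were well counted and equally often raised and lowered. It therefore could not show error rates under the unequal scaling factors and many changes of these data. Named genes were the 10 largest rises and falls with a symbol, at least 10 CPM, and no overlap, the 2 largest each without a symbol, up to 3 called members per list and direction with the most counted member, and the 8 genes with the largest share of counts, except where a gene is given as chosen after its values were seen. SMC membership followed the study's cluster table. Names and positions were looked up in RefSeq (NC12), which held 10590 of the 10592 IDs. The libraries compared, the genes, and the 52 lists were chosen with earlier results of these data known. The counts of 1 list and some of its members are not reported here. Alternatives were library totals, upper-quartile factors, DESeq2 1.42.0, the 6 libraries alone, no filter and a stricter filter (1 CPM), removal of rRNA genes, a test against a 2-fold change, a replicate block, and leaving out each library.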

Additional observations from a re-analysis of the deposited data

How the results depend on the processing

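Of 101 genes named in the text and past the test, 83 kept their call under all alternatives but the test against a 2-fold change, and 18 lost it in at least 1. Of these, 11 were lost by library totals alone, and none changed direction there. By library totals 3367 genes were upregulated and 578 downregulated, so that 85.3% of changed genes were upregulated against 49.6%, and the cause of the shift between scalings was not tested. Tested against a 2-fold change, 8 genes passed, 7 upregulated and 1 downregulated, and 2 list members remained of 392. Leaving out 1 library at a time gave 2714 to 3463 changed genes, 1304 to 1669 upregulated and 1410 to 1794 downregulated, and 318 to 392 called list members. Without 360 min replicate 3 the difference in rRNA share turned from 2.25 to -0.88 percentage points (exact permutation p = 0.2, two-sided). With 1 of the 6 libraries left out, 0.2 is the smallest p possible. Over all such omissions the difference lay between -0.88 and 3.92. Upper-quartile factors gave 1868 upregulated and 1518 downregulated genes, DESeq2 1601 and 1876, the 6 libraries alone 1386 and 1461, no filter 1615 and 1668, and the stricter filter 1734 and 1683. Deviations from the stage means correlated at 0.17, 0.022, and 0.044 for equal replicate numbers and at -0.10 to 0.057 for unequal ones. Values this small do not settle whether replicate numbers pair the libraries. A replicate block gave 1594 upregulated and 1670 downregulated genes and ended the call of 1 named gene, NCU16022 (edgeR adjusted p = 0.055). An rRNA list drawn from product names could not be run, since the reference table used here gives none. Precision was limited for genes of a few counts, and by 3 pools per stage, for which no permutation p is under 0.1.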
